A study of Sus scrofa with 17 samples.

Results

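The peroxisome proliferator-activated receptors (PPARs) and their partners, the retinoid X receptors (RXRs), were followed in the muscle of weaned piglets together with 6 of their lipid targets. The 10 genes were chosen by symbol, namely the receptors PPARA, PPARD, RXRA and RXRG and the targets PDK4, ANGPTL4, UCP3, CD36, PLIN2 and FABP3. They are 10 of the 31908 genes in the count table, and all 10 were among the 14203 genes with enough reads to be tested. They were chosen with their levels under the 3 diets in view. Their differences between diets are therefore given as a description. Calls of members at a p-value threshold are printed for description only, and neither the calls nor their counts support anything.

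The study asked how the green seaweed Ulva lactuca in the feed, alone or with an ulvan-degrading enzyme, changed the metabolism of the longissimus muscle. Male Large White × Duroc piglets entered the trial at 28 days of age and stayed in metabolic cages for 5 days of adaptation and 2 weeks of feeding, pair-fed and housed singly. The control piglets ate a wheat, maize and soybean meal diet, the UL piglets ate that diet with 7% of it replaced by Ulva lactuca, and the ULU piglets ate the UL diet with 0.01% recombinant ulvan lyase. RNA-seq counts from 6 control, 6 UL and 5 ULU piglets, 1 library each, were analysed, and libraries are called below by the animal numbers of the labels. No group received the enzyme without the seaweed, so ULU vs UL is the comparison that holds the seaweed constant.

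PPARs are nuclear receptors that bind fatty acids and their derivatives, pair with an RXR, and switch on genes for the uptake, storage and oxidation of fat. In skeletal muscle PPARD is the PPAR best known for the response to fasting and endurance exercise, PPARA shares many of its targets, and RXRG is an RXR typical of muscle. The targets act at different points of fat and fuel use. CD36 brings fatty acids across the cell membrane, FABP3 carries them in the cytosol, and PLIN2 coats the droplets in which they are stored. ANGPTL4 is a secreted inhibitor of lipoprotein lipase, and UCP3 is a carrier of the inner mitochondrial membrane. PDK4 is the kinase that switches off pyruvate dehydrogenase when fat is burned in place of glucose.

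Each library held between 16137365 and 26546810 counted reads, and levels are given as CPM (counts scaled to a fixed library total) after TMM scaling, a method that corrects for library composition. At this depth 3 reads corresponded to 0.130 to 0.195 CPM, well under the lowest level of any of the 10 genes. The TMM factors spanned 0.765 in ULU piglet 43 to 1.21 in control piglet 22. The labelled tissue showed in the markers: the summed level of 5 skeletal muscle genes was between 107133 CPM (control 22) and 289314 CPM (ULU 43), with medians of 147976, 177072 and 203200 CPM in control, UL and ULU. The counts are from whole tissue, in which fewer cells of a type and less RNA per cell cannot be told apart.

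The genes lie on 7 chromosomes of Sscrofa11.1. In the Ensembl models PPARA (ENSSSCG00000000006) spans chr5:3300708-3366361, PPARD (ENSSSCG00000001539) chr7:31222589-31295212, RXRA (ENSSSCG00000038220) chr1:273705503-273797622 and RXRG (ENSSSCG00000006328) chr4:85158276-85357137. PDK4 (ENSSSCG00000015334) spans chr9:75246002-75260134, UCP3 (ENSSSCG00000014834) chr9:8378019-8386211, ANGPTL4 (ENSSSCG00000013599) chr2:70904531-70912974 and PLIN2 (ENSSSCG00000035863) chr1:203683862-203709274. CD36 (ENSSSCG00000015405, chr9:99605181-99782105) was named by its position, and its model reaches over a neighbouring gene without a symbol, so some of its reads may belong to that neighbour. FABP3 (ENSSSCG00000036883, chr6:87942790-87951610) shares 514 of its exon bases, 44.9% of them, with exons of ZCCHC17 on the other strand, and reads in that stretch were counted for neither gene.

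Levels of different genes were compared per length, as RPKM, reads per kilobase of exon scaled like CPM. CD36 was the most abundant of the 10 under every diet, at 88.9 ± 10.4 RPKM in control (SD, n = 6), 72.1 ± 4.29 in UL (n = 6) and 82.3 ± 14.8 in ULU (n = 5), and no library of any diet overlapped with the next gene. FABP3, RXRG and PLIN2 followed at means between 9.30 and 28.1 RPKM. In control these 3 were at 16.4, 13.4 and 11.2 RPKM and the ranges of neighbours overlapped, whereas in ULU the order was RXRG (28.1 ± 10.1), FABP3 (20.2 ± 1.11) and PLIN2 (9.30 ± 1.27), with FABP3 above PLIN2 in every ULU library. The RPKM of FABP3 was divided by all its exon bases, including the 44.9% shared with ZCCHC17 in which no reads were counted. It is therefore too low, and the order of FABP3 and RXRG in ULU is uncertain, as are the overlaps of FABP3 with its neighbours. UCP3, PDK4, ANGPTL4 and PPARD had lower means, between 1.23 and 7.99 RPKM. Their ranges were not all apart from those of the other genes: UCP3 overlapped with PLIN2 in ULU, and PDK4 overlapped with RXRA under every diet. RXRA and PPARA had the lowest means under every diet, from 0.671 to 1.16 RPKM, and the 2 overlapped under every diet. RXRG was thus the RXR with the highest level per length in this muscle, while RXRB stood at 1.68 ± 0.345 RPKM in control.

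**Figure D1:**
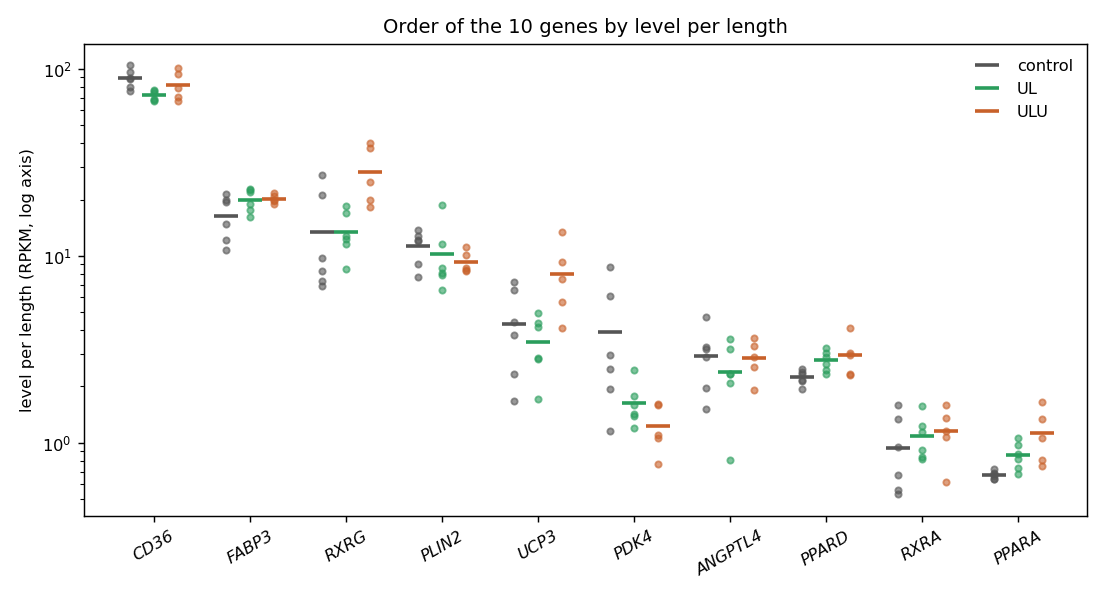
Level per length of the 10 genes (RPKM, log axis) under the control, UL and ULU diets. Points are libraries and bars are means over 6, 6 and 5 libraries. CD36 stands above all other genes under every diet, RXRA and PPARA have the lowest means, and the mean of RXRG is above that of FABP3 in ULU. FABP3 is drawn too low, since no reads were counted in 44.9% of its exon bases, so its order with RXRG is uncertain.

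PPARA was low and had its lowest spread in control. The 6 control libraries ranged from 2.49 to 2.84 CPM with a median of 2.61, the 6 UL libraries from 2.66 to 4.15 CPM with a median of 3.30, and the 5 ULU libraries held 3.14, 4.16, 2.95, 6.41 and 5.20 CPM. On this scale all 5 ULU libraries lay above all 6 control libraries, while UL overlapped with both. The separation depended on the TMM scaling: scaled by the raw totals alone, control piglets 22 and 26 were at 3.20 and 3.04 CPM and ULU piglets 40 and 42 at 2.91 and 3.05 CPM, so the ranges overlapped. Of all tested genes, 3.39% had ranges that did not overlap between ULU and control, and PPARA was the 1 member among them. Between UL and control, 0.852% of tested genes had ranges apart, and between ULU and UL 1.75%, with 0 of the 10 in each. The fitted log2(fold change) was 0.73 (SE 0.20) in ULU vs control, 0.35 (SE 0.19) in UL vs control and 0.38 (SE 0.20) in ULU vs UL. These levels rest on 41 to 130 reads per library. The coefficient of variation over the control libraries was 4.92%, lower than the 14.1% that counting error alone gives at their mean of 50.3 reads, so the tightness of the control points understates the error of the control level.

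PPARD, the PPAR with more reads, varied less between diets. Control libraries ranged from 7.93 to 10.2 CPM (median 9.22), UL libraries from 9.60 to 13.3 CPM (median 11.3), and the ULU libraries held 9.48, 12, 12.3, 17 and 9.53 CPM. The ranges overlapped in every comparison, with 4 of 6 UL libraries and 3 of 5 ULU libraries above all control libraries. Its log2(fold change) was 0.30 (SE 0.14) in UL vs control, 0.39 (SE 0.15) in ULU vs control and 0.09 (SE 0.15) in ULU vs UL. ULU piglet 43 had the highest PPARA and PPARD of all 17 animals on this scale. It also had the lowest TMM factor, and on raw totals PPARA was highest in ULU piglet 44 (5.17 CPM against 4.90 in 43) and PPARD in UL piglet 29 (14.3 CPM against 12.96 in 43). Piglet 43 had the highest skeletal muscle markers as well, whose part in these values was not tested.

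The RXR partners differed from each other. RXRG ranged from 17.6 to 68.6 CPM in control (median 22.9) and from 21.7 to 46.8 CPM in UL (median 31.9), and the ULU libraries held 50.7, 63.3, 96.4, 102 and 46.2 CPM. In control 4 libraries lay at or under 24.7 CPM while piglets 21 and 25 reached 68.6 and 54.1 CPM, so the ULU range overlapped with control through those 2 animals. Against UL, 4 of 5 ULU libraries were above every UL library. The mean level was 34.1 ± 21.7 CPM in control, 34.2 ± 9.32 CPM in UL and 71.7 ± 25.8 CPM in ULU. The log2(fold change) was 1.07 (SE 0.33) both in ULU vs control and in ULU vs UL, and 0.00 (SE 0.32) in UL vs control. RXRA, the RXR expressed most widely across tissues, ranged from 3.58 to 10.8 CPM in control (median 5.48) and from 5.51 to 10.6 CPM in UL (median 6.94), and the ULU libraries held 7.25, 10.8, 7.84, 9.12 and 4.18 CPM. RXRA overlapped fully between diets, with log2(fold change) values from 0.09 (SE 0.29) to 0.30 (SE 0.29).

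**Figure D2:**
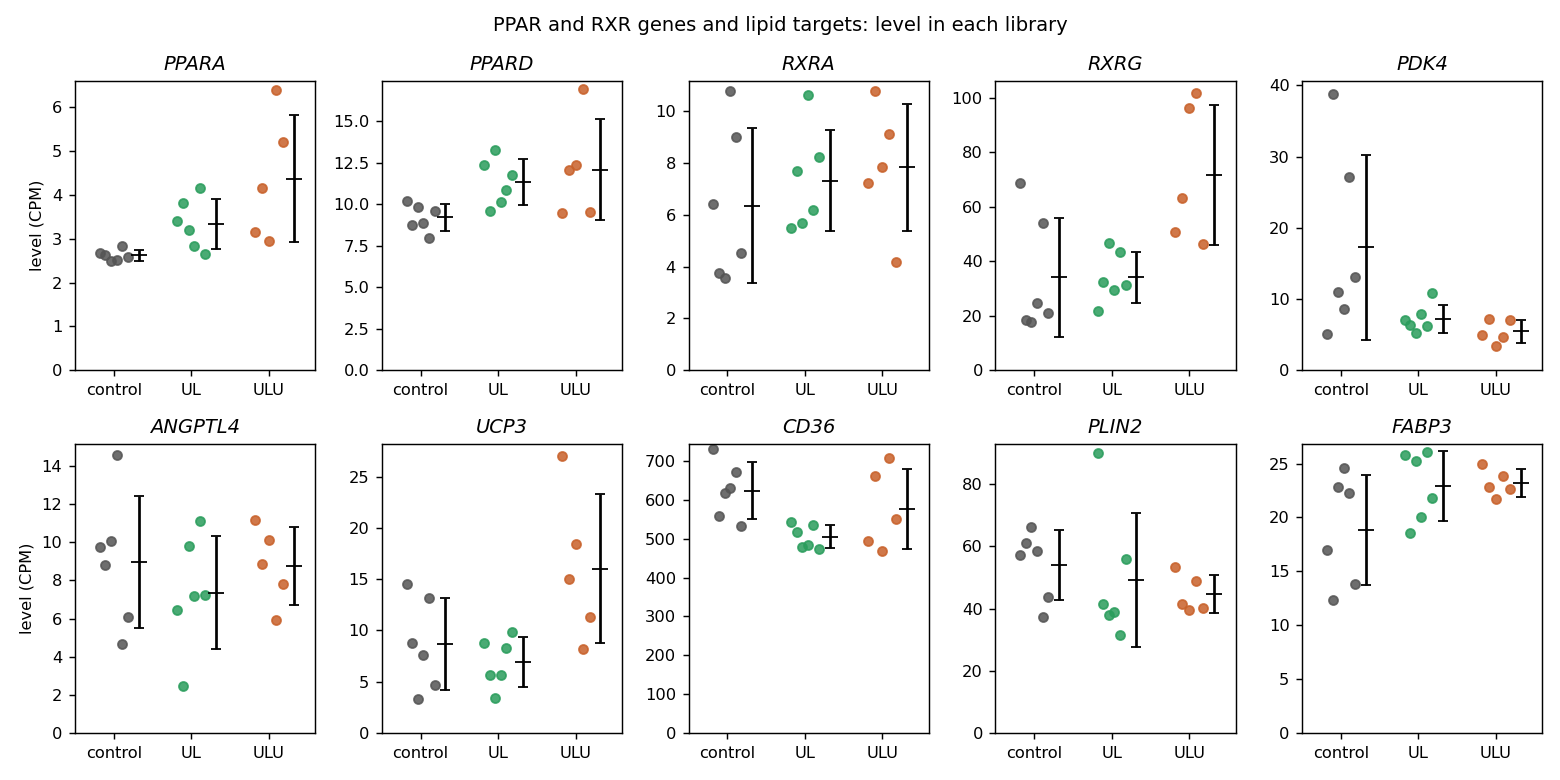
Level of each of the 10 genes in every library (CPM, axes from 0) by diet. Points are libraries, and the black marks beside them are the mean and SD over 6 control, 6 UL and 5 ULU libraries. After TMM scaling the ULU points of PPARA lie above all control points, which is lost on raw totals (ULU 40 at 2.91 CPM against control 22 at 3.20 CPM), and the control points of PDK4 spread from 5.09 to 38.8 CPM.

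PDK4 was the member with the largest difference and the largest spread. Control libraries ranged from 5.09 to 38.8 CPM (median 12.1), UL libraries from 5.29 to 10.8 CPM (median 6.68), and the ULU libraries held 4.89, 7.15, 3.42, 4.68 and 7.10 CPM. The high values were in control piglets 22 and 25, at 38.8 and 27.1 CPM, and the lowest control library, piglet 21, lay below all UL libraries and inside the ULU range. The log2(fold change) was -1.67 (SE 0.40) in ULU vs control, -1.26 (SE 0.37) in UL vs control and -0.41 (SE 0.39) in ULU vs UL. Without control piglet 22 these values against control became -1.26 and -0.84. The gene-wise dispersion of PDK4, the spread that remains within diets, was higher than in 83.5% of the tested genes.

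UCP3 and RXRG followed PDK4 in spread, at the 80.6th and 77.8th percentiles of dispersion. UCP3 ranged from 3.33 to 14.5 CPM in control (median 8.20) and from 3.42 to 9.87 CPM in UL (median 7.0), and the ULU libraries held 27, 15, 18.5, 8.23 and 11.3 CPM. Only ULU piglet 43 fell within the UL range, and ULU piglets 40, 41 and 42 lay above all control libraries. The log2(fold change) was 1.21 (SE 0.36) in ULU vs UL, 0.88 (SE 0.35) in ULU vs control and -0.33 (SE 0.34) in UL vs control.

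ANGPTL4 did not separate the diets. It ranged from 4.69 to 14.6 CPM in control, 2.49 to 11.09 CPM in UL and 5.91 to 11.2 CPM in ULU, with log2(fold change) values between -0.28 (SE 0.29) and 0.25 (SE 0.30).

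The genes of uptake, transport and storage had smaller differences. CD36 had the lowest dispersion of the 10, higher than in only 9.72% of tested genes. It ranged from 532 to 732 CPM in control (median 624) and from 473 to 542 CPM in UL (median 501), and the ULU libraries held 495, 660, 469, 707 and 551 CPM. In UL 4 of 6 libraries were below all control libraries, and the log2(fold change) was -0.30 (SE 0.11) in UL vs control, -0.11 (SE 0.12) in ULU vs control and 0.19 (SE 0.12) in ULU vs UL.

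FABP3 ranged from 12.4 to 24.6 CPM in control, from 18.6 to 26.1 CPM in UL and from 21.7 to 25.0 CPM in ULU. Its control libraries lay partly below the others, at 12.4, 13.9 and 16.9 CPM in piglets 22, 26 and 21, and the log2(fold change) against control was 0.29 (SE 0.15) in UL and 0.30 (SE 0.16) in ULU. Its coefficient of variation was 27.2% in control and 5.48% in ULU. PLIN2 ranged from 37.2 to 66.2 CPM in control, 31.5 to 89.9 CPM in UL and 39.6 to 53.4 CPM in ULU. UL piglet 27 alone lay above the control range of PLIN2, and the log2(fold change) values were between -0.27 (SE 0.22) and -0.13 (SE 0.21).

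**Figure D3:**
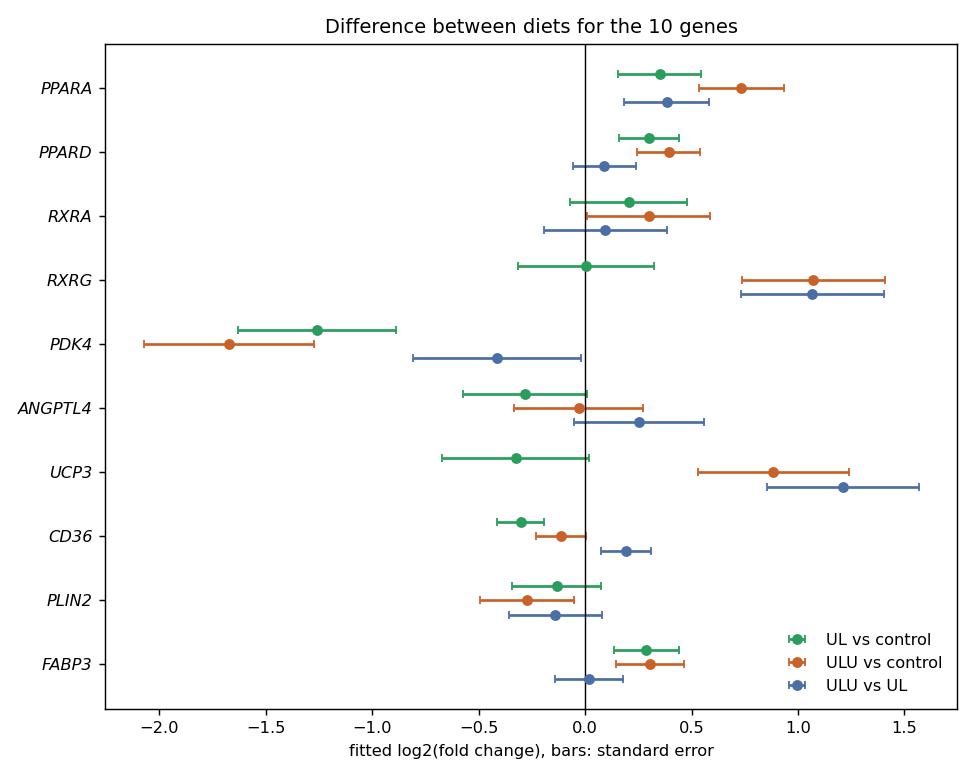
Fitted log2(fold change) of the 10 genes in the 3 comparisons of diets (by colour), with the standard error as bars. UL vs control and ULU vs control share the control libraries. PDK4 lies furthest below 0 (-1.67 in ULU vs control), and UCP3 (1.21) and RXRG (1.07) lie furthest above 0 in ULU vs UL.

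Read over the 10 genes, the median log2(fold change) was -0.06 in UL vs control, 0.30 in ULU vs control and 0.14 in ULU vs UL, beside 0.00, -0.03 and -0.02 over all tested genes. With the quasi-likelihood F test of edgeR and an adjusted p-value under 0.05, 0 of the 10 were called in UL vs control, where 0.0% of all tested genes were called, 1 (PDK4) in ULU vs control against 2.98%, and 0 in ULU vs UL against 0.0352%. At an unadjusted p-value under 0.05 the counts were 3 (10.8% of all tested genes), 5 (18.9%) and 2 (10.8%) in the same order. DESeq2 on all 17 libraries called 1 (PDK4), 3 (PDK4, PPARA and RXRG) and 1 (RXRG) of the 10. It also called more of all tested genes than edgeR in each comparison, with counts given further below. The study, which used DESeq2, reported RXRG as higher in ULU than in UL. The call of PDK4 was lost without control piglet 22 and without each of ULU piglets 40, 41, 42 and 43. PPARA was called without ULU piglet 42, RXRG without control piglet 21, and both without control piglet 25. All these calls describe genes chosen with their levels in view and are no test of them.

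The other genes of the pathway were taken from a list of 113 PPAR and RXR partners, cofactors and targets, of which 95 were tested and none was one of the 10 members. The list was written with earlier results of these data known. The share of it that was called is therefore a description and no test of the pathway. In ULU vs control 7 of the 95 (7.37%) changed with an adjusted p-value under 0.05 in edgeR's quasi-likelihood test, beside 2.98% of all tested genes. Of these 5 were higher and 2 were lower in ULU, and the median log2(fold change) of the list was 0.01 beside -0.03 over all tested genes. The count was sensitive to single animals: it was 2, 1, 3, 11 and 3 without control piglets 22, 23, 24, 25 and 26, and 1, 4, 2 and 3 without ULU piglets 40, 41, 43 and 44. It was 0 when edgeR was fitted to the 2 diets alone and 14 with DESeq2 on all 17 libraries. In UL vs control 0 of 95 genes passed in edgeR, with 9 at an unadjusted p-value under 0.05 and 0 with DESeq2. In ULU vs UL 0 passed in edgeR, with 17 at an unadjusted p-value under 0.05 and 3 with DESeq2 on all 17 libraries.

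The genes of mitochondrial and peroxisomal oxidation held 4 of the 7 calls, all higher in ULU than in control, with 21 of 25 tested members above 0 and a median log2(fold change) of 0.16. ACADVL, which starts the oxidation of long-chain acyl-CoA in mitochondria, rose from 62.5 ± 11.3 to 97.1 ± 15.2 CPM, a log2(fold change) of 0.64 (SE 0.13, edgeR adjusted p = 0.0155), and it remained called in each of the 17 fits that left out 1 library. HADHA, the alpha subunit of the mitochondrial trifunctional protein, rose from 137 ± 19.4 to 185 ± 10.8 CPM, with a log2(fold change) of 0.43 (SE 0.10, edgeR adjusted p = 0.0336). ETFDH, which passes electrons from fatty acid oxidation to ubiquinone, and EHHADH, a peroxisomal oxidation enzyme, each rose with a log2(fold change) of 0.42 (SE 0.11, edgeR adjusted p = 0.0495). The other calls were less stable: HADHA lost its call in 8 of those 17 fits and ETFDH and EHHADH in 14 each, and without ULU piglet 43 the adjusted p-value of ETFDH was 0.145. Against UL, both ETFDH and EHHADH had every ULU library above every UL library, as did the adiponectin receptor gene ADIPOR1, where 1.75% of all tested genes had ranges apart. Their log2(fold change) values in ULU vs UL were 0.53 (SE 0.11), 0.48 (SE 0.11) and 0.40 (SE 0.12), with edgeR adjusted p-values of 0.104, 0.127 and 0.258. CPT1B, the muscle enzyme that admits long-chain acyl groups to mitochondria and a classical PPAR target, was at 52.5 ± 7.52 CPM in control and 69.8 ± 21.5 CPM in ULU and did not pass (log2(fold change) 0.41, SE 0.18, edgeR adjusted p = 0.230).

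Outside oxidation, MGLL, which hydrolyses monoglycerides, rose from 33.3 ± 6.02 to 48.4 ± 5.52 CPM in ULU (log2(fold change) 0.54, SE 0.13, edgeR adjusted p = 0.0336). PPARG, the PPAR of fat cells, fell from 5.52 ± 3.79 to 1.89 ± 0.590 CPM (log2(fold change) -1.55, SE 0.37, edgeR adjusted p = 0.0336). The control libraries held 4.84, 4.38, 4.55, 13, 3.97 and 2.34 CPM and the ULU libraries 1.75, 2.79, 2.12, 1.48 and 1.31 CPM. NRIP1, a corepressor of nuclear receptors, fell from 41.4 ± 14.3 to 21.2 ± 2.97 CPM (log2(fold change) -0.96, SE 0.21, edgeR adjusted p = 0.0222). The calls of MGLL and PPARG were lost in 6 and that of NRIP1 in 2 of the 17 fits that left out 1 library. The coactivator gene PPARGC1A was at 24.5 ± 11.3 CPM in control and 33.3 ± 8.37 CPM in ULU and did not pass (edgeR adjusted p = 0.317). RXRB was at 4.97 ± 1.02 CPM in control, 5.12 ± 1.38 in UL and 4.63 ± 1.01 in ULU, and it did not pass in any comparison.

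PPARG varied with fat cell markers among piglets of the same diet. Control piglet 24, with 13 CPM of PPARG, also had the highest summed level of 8 matched adipocyte genes, 796 CPM, where the other control libraries had 85.7 to 205 CPM, the UL libraries 63.7 to 227 CPM and the ULU libraries 31.1 to 178 CPM. Without that piglet the log2(fold change) of PPARG was -1.09 and the edgeR adjusted p-value 0.0639. Of the 8 adipocyte genes 6 also stand in the pathway list. None of the 6 adipocyte genes that were tested passed in edgeR in ULU vs control, with log2(fold change) values from -1.90 (THRSP) to -0.69 (LIPE), 3 at an unadjusted p-value under 0.05 and a median of -1.23, and DESeq2 on all 17 libraries called 0 of the 8 matched. LEP and PCK1 had at most 1.64 and 2.35 CPM in any library. Across the 17 libraries, after removing the diet means, PPARG and the summed adipocyte level had a Pearson's r of 0.81 and a Spearman's rho of 0.74. Pearson's r was 0.66 without the 2 libraries furthest from the median of PPARG. These values leave out the differences between diets. The part of fat cell content in the lower PPARG was not tested.

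**Figure D4:**
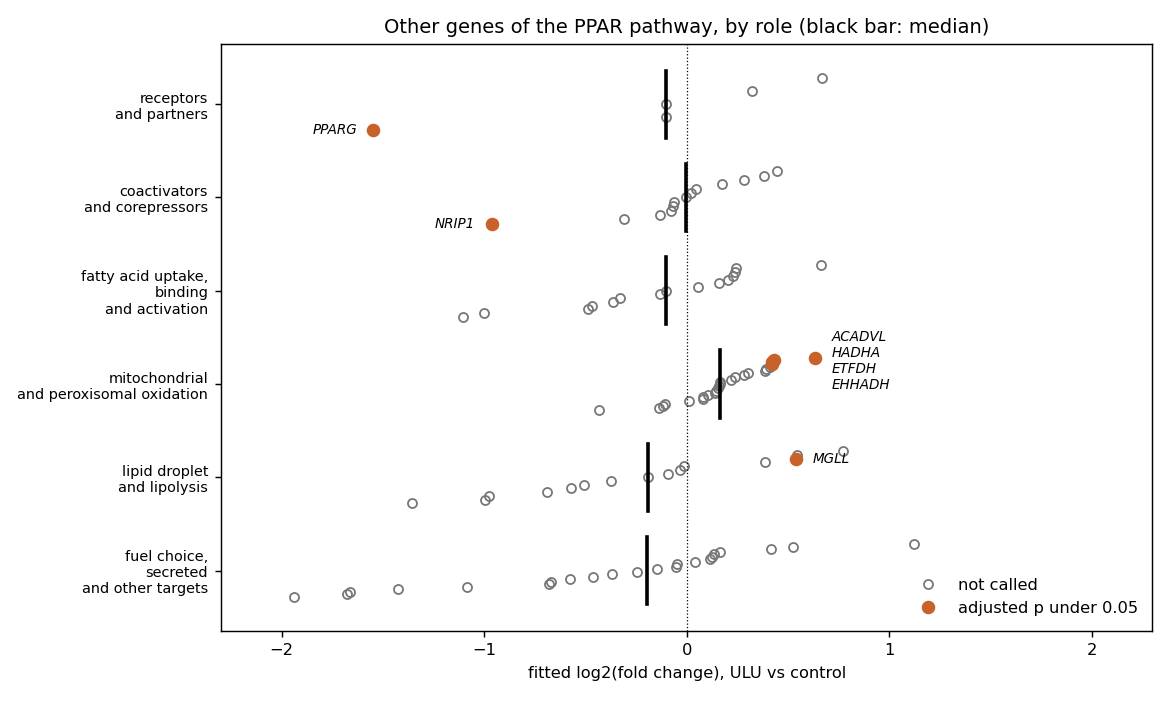
Fitted log2(fold change) in ULU vs control of the 95 tested genes of the pathway list, by role, with each group's median as a black bar. Filled points passed an adjusted p-value under 0.05, named beside the outermost of them in order of size. Oxidation genes lie mostly above 0 (21 of 25), and PPARG lies at -1.55. The list was written with earlier results of these data known.

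The close relatives of the targets named here did not pass in any comparison. PDK2, the other pyruvate dehydrogenase kinase with high levels in muscle, was at 54.8 ± 13.3 CPM in control and 78.8 ± 19.1 CPM in ULU, with a log2(fold change) of 0.52 (SE 0.18, edgeR adjusted p = 0.112), where PDK4 had -1.67. PDK1 and PDK3 had log2(fold change) values of -0.14 (SE 0.21) and 0.04 (SE 0.23). UCP2 was at 6.77 ± 3.31, 5.89 ± 1.03 and 4.89 ± 3.27 CPM in control, UL and ULU. Per length, the fat cell carrier FABP4 was at 76.6 ± 61.8 RPKM in control and 35.7 ± 19.8 RPKM in ULU, more than FABP3 in control but with a spread nearly as large as its level. The level per length of FABP3 is too low because of its shared exon bases. Among the droplet coats, PLIN5, the perilipin of oxidative tissue, was at 4.44 ± 1.67 CPM in control and 7.63 ± 2.41 CPM in ULU (log2(fold change) 0.77, SE 0.25, edgeR adjusted p = 0.0887), PLIN4 had a log2(fold change) of 0.55 (SE 0.22), PLIN3 of -0.19 (SE 0.19) and PLIN1 of -0.97 (SE 0.78). ANGPTL1 was at 95.2 ± 18 CPM in control and 63.9 ± 13.5 CPM in ULU (log2(fold change) -0.58, SE 0.20, edgeR adjusted p = 0.110), and ANGPTL2 had a log2(fold change) of -0.37 (SE 0.20). FABP5 had -0.13 (SE 0.20) and FABP1, at 0 to 12.8 CPM, had -1.0 (SE 1.28).

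Most markers of muscle fibres had higher levels in ULU than in control, as did most oxidation genes. Of 9 tested slow fibre genes 0 had a log2(fold change) below 0, and of 8 fast fibre genes 1 did, PVALB at -0.27 (SE 0.33). The lists held 11 slow and 10 fast fibre genes. The myosin heavy chain genes MYH7 (slow) and MYH1 and MYH4 (fast), and MYOZ2 (slow), had no matched gene and are missing from these values. In UL vs control the median log2(fold change) was 0.59 for slow fibre genes, 0.33 for fast fibre genes and 0.00 for the oxidation genes. Of the 25 oxidation genes 13 were above 0 in that comparison. The summed level of 9 slow fibre genes was 3474 to 7670 CPM in control, 5656 to 10905 CPM in UL and 5983 to 12985 CPM in ULU, and that of 8 fast fibre genes was 40665 to 66947, 58366 to 75182 and 62273 to 93734 CPM. In UL vs control 0 of these genes passed in edgeR, with 8 slow and 5 fast fibre genes at an unadjusted p-value under 0.05 and TNNT1 called with DESeq2. In ULU vs UL 0 passed, with 0 slow and 4 fast fibre genes at that p-value and ACTN3 called with DESeq2. In ULU vs control 2 of 9 tested slow fibre genes and 5 of 8 tested fast fibre genes rose in edgeR at an adjusted p-value under 0.05 (2.98% of all tested genes), among them TNNT1 with a log2(fold change) of 1.30 (SE 0.27) and ACTN3 with 0.71 (SE 0.14). The part of fibre markers in the higher oxidation genes was not tested. No gene of the endothelial, leukocyte, fibroblast, smooth muscle, nerve, liver or erythroid lists passed in any comparison in edgeR or DESeq2, with 0, 4 and 0 of their 32 tested genes at an unadjusted edgeR p-value under 0.05 in UL vs control, in ULU vs control and in ULU vs UL, and LYZ, MYOCD, SOX10, SERPINA1 and SLC4A1 were under 1 CPM in every library. The 4 genes at that p-value in ULU vs control, EMCN, PTPRC, PDGFRA and LUM, all had lower levels in ULU. All 8 tested leukocyte genes, all 6 fibroblast genes and 6 of 8 endothelial genes had a log2(fold change) below 0, with medians of -0.40, -0.33 and -0.22. The part of these cell types in the higher oxidation genes was not tested.

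Within diets the 10 genes varied largely apart from each other. Of their 45 pairs, 41 had a Pearson's r between -0.4 and 0.4 over the 17 libraries after the diet means were removed, and the median was 0.08. These points share the library and its scaling. The 1 pair above 0.6 in size was PPARA with CD36 (r = 0.69, rho = 0.69), and r was 0.43 without the 2 libraries furthest from the median. The receptor pair RXRA and RXRG had r = 0.45, and RXRG and PLIN2 had r = -0.45. CD36 also varied with the summed fast fibre genes (r = 0.77) and skeletal muscle genes (r = 0.71). PDK4 had its highest r among the lists shown with endothelial genes (0.53).

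**Figure D5:**
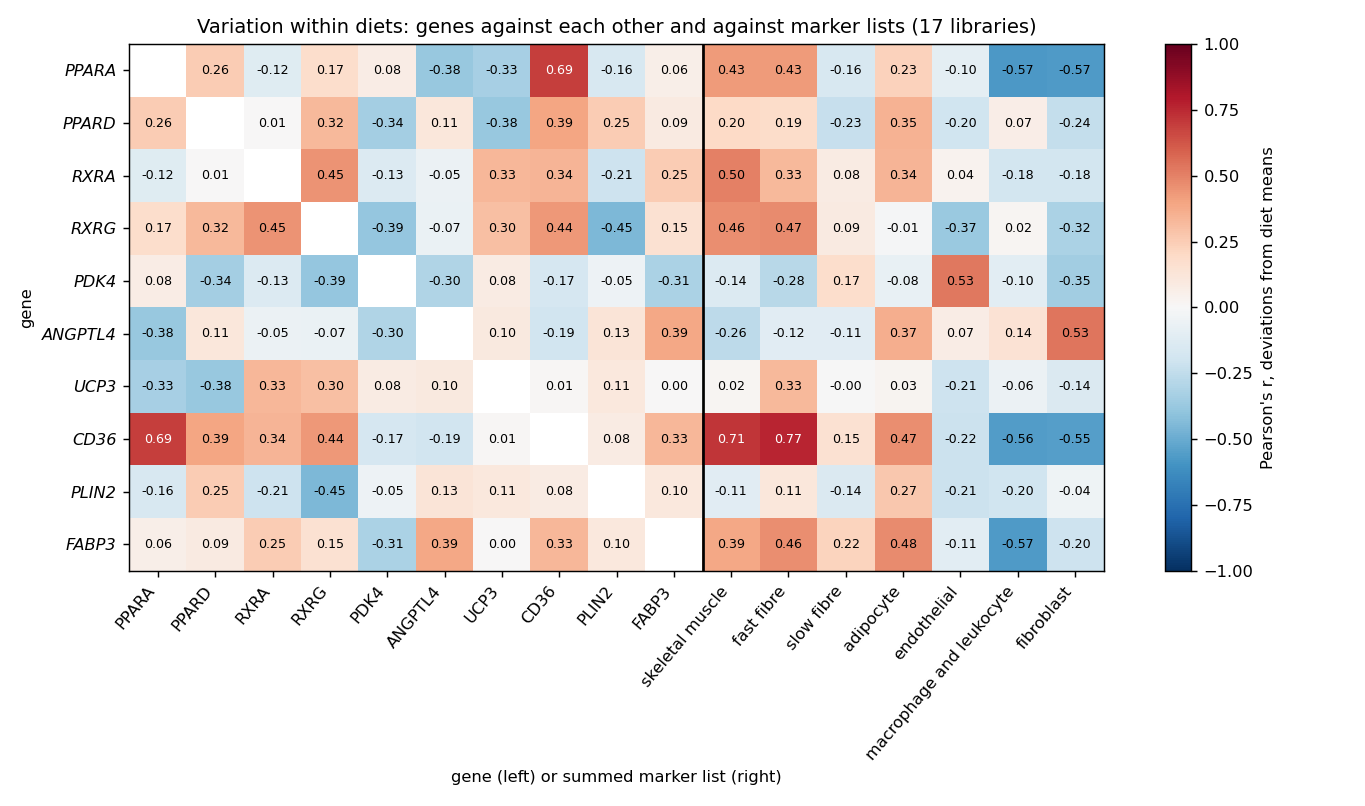
Pearson's r over 17 libraries, after the mean of each diet was removed, for each pair of the 10 genes (left) and for each gene against the summed level of 7 marker lists (right). Red is positive and blue negative. Most pairs are pale (41 of 45 between -0.4 and 0.4), and CD36 is darkest with PPARA (0.69), skeletal muscle (0.71) and fast fibre genes (0.77).

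Variation within diets was also compared with that of 10683 other named genes with a mean of at least 1 CPM. Over the 17 libraries, after the diet means were removed, the 5 genes closest to RXRG were BIN1 (r = 0.89), DDB2 (0.88), PRADC1 (0.87), GCH1 (0.85) and ATRAID (0.85). For PPARA they were HHATL (0.84), SYPL2 (0.84), METAP2 (0.84), DHTKD1 (0.79) and CAPN3 (0.78). For PDK4 they were MYCBP2 (0.87), INPP5J (0.74), ZFHX3 (0.74), IFN-OMEGA-6 (0.73) and RAD51B (0.73). Without the 2 libraries furthest from the median of PDK4, MYCBP2 stayed at 0.78 and IFN-OMEGA-6 was at 0.83, while INPP5J was at 0.52, ZFHX3 at 0.47 and RAD51B at 0.52. For RXRG the 5 values were between 0.74 and 0.81 in that case. For PPARA they were 0.75 for HHATL and SYPL2, 0.66 for METAP2, 0.57 for DHTKD1 and 0.47 for CAPN3. The highest of 10683 values is large by selection.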

How the data were processed

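The 17 libraries (6 control, 6 UL, 5 ULU) were read as 75 nt reads. Per the methods, fastp trimming and hisat2 alignment preceded counting with featureCounts, and the authors deposited raw counts per gene without normalization. The file header names featureCounts 2.0.1 and Ensembl 104 of Sscrofa11.1, without options for strand, multi-mapped or multi-overlapping reads, while the labels name Subread 1.5.1. The mean over libraries and the gene length, a column of the other kind (base pairs), were also deposited by the authors, and the length was used for RPKM.

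Of 31908 genes, 15029 were named by gene ID and 5849 by position against RefSeq of the same assembly, at 10% or more of exonic bases. Of 14819 genes that had both, 12887 had the same symbol. Of the 10 members 9 were named by ID and CD36 by position.

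Counts were analysed with edgeR 4.0.16 in R 4.3.3 (TMM, filterByExpr, quasi-likelihood F test, 1 model of 17 libraries, Benjamini-Hochberg adjustment over 14203 genes). DESeq2 1.42.0, other scalings, no filter, 2-diet fits and leaving out each library were alternatives. A gene was called at an adjusted p-value under 0.05. Standard errors were the log2(fold change) divided by the square root of F. Log2 CPM for relations used a prior count of 2. Libraries are separate piglets, and no 2 libraries were identical. The fit was tested on simulated data. The floor of 3 reads covers counting error only, whereas the SDs and standard errors include the spread between piglets. The members and lists were chosen with earlier results of these data known. Genes named were the members, PPARG, RXRB, relatives of the targets, pathway genes that were called or had the 3 smallest p-values, the 5 genes most like RXRG, PDK4 and PPARA, and the extremes of the marker lists; ADIPOR1, CPT1B, PPARGC1A, SLC27A1, TNNT1 and ACTN3 were added after their values were seen. A further relative of a target is not reported here.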

Additional observations from a re-analysis of the deposited data

How the results depend on the processing

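Of 750 values of the 10 genes under alternatives, 2 moved by more than the spread between replicates. The sign changed under at least 1 of 24 alternatives in 6 of 30 differences between diets: RXRG in UL vs control (same sign in 17), ANGPTL4 in ULU vs control (20), and FABP3 (20), PPARD, RXRA and PLIN2 (23 each) in ULU vs UL. The log2(fold change) in UL vs control spanned -0.13 to 0.33 for RXRG and -0.39 to -0.03 for PLIN2. On raw totals the control mean of PPARA was 2.78 CPM and the ULU mean of FABP3 21.6 CPM. Counts of calls depended on it more. With DESeq2 on all 17 libraries 146, 1037 and 173 of all tested genes were called in UL vs control, in ULU vs control and in ULU vs UL, and 14 and 3 of the pathway list in the last 2 comparisons. Of the 10 members that fit called 1, 3 and 1 in the 3 comparisons. With DESeq2 on the 2 diets compared the counts were 148, 828 and 238 genes, and 13 and 6 of the list. The main counts were 0, 423 and 5 genes, with 1541 and 1540 at an unadjusted p-value under 0.05 in UL vs control and ULU vs UL. With edgeR on the 2 diets compared, ULU vs control gave 111 genes and 0 of the list and ULU vs UL 1 gene. Without the low-count filter they were 228 genes and 4 of the list, and 8 genes. With a log2(fold change) of at least 1 added they were 59 genes and 1 of the list (PPARG), and 2 genes. Leaving out 1 library gave 0 to 16 genes in UL vs control (16 without control piglet 25), 147 to 799 in ULU vs control (147 without ULU piglet 43, 799 without control piglet 25) and 1 to 7 in ULU vs UL, and 1 to 11 of the list in ULU vs control. The cause of these differences was not tested. PDK4, PPARG, NRIP1, ACADVL, HADHA, ETFDH, EHHADH and MGLL kept their sign in ULU vs control under all 24 alternatives, and their calls remained in 12, 11, 15, 17, 9, 3, 3 and 11 of 17 fits that left out 1 library. None of these 8 was called with edgeR on the 2 diets compared. No paired analysis was possible because the diets share no replicate numbers. Counting error at 41 to 130 reads gives PPARA a coefficient of variation of 14.1%, 12.6% and 10.6% in control, UL and ULU, where 4.92%, 16.97% and 33.2% were observed.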

Other observations

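In UL vs control, the 3 pathway genes with the smallest p-values were PPARG (log2(fold change) -0.95, SE 0.34, adjusted p = 0.328 in edgeR's quasi-likelihood test), NRIP1 (-0.54, SE 0.20, adjusted p = 0.329) and NR1H2, a liver X receptor (0.28, SE 0.11, adjusted p = 0.364), and these did not pass. In ULU vs UL they were ETFDH, EHHADH and AQP7, a channel for glycerol. AQP7 was at 1.5 ± 0.597, 1.43 ± 0.791 and 3.25 ± 0.594 CPM in control, UL and ULU. Its log2(fold change) was 1.18 (SE 0.35) in ULU vs UL, and it did not pass either (adjusted p = 0.244 in edgeR). The study, which used DESeq2, reported AQP7 as higher in ULU than in control. In edgeR it was not among the 7 genes of the list called in that comparison. SLC27A1, a fatty acid transport protein, was the 1 gene of the list whose ULU libraries all lay above all control libraries (3.39% of all tested genes had ranges apart), with a log2(fold change) of 0.67 (SE 0.20).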
